A study of Mus musculus with 15 samples.

Results

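Extracellular adenosine and the breakdown products of tryptophan both restrain T cells, and 7 genes that make or sense them were followed here through 4 syngeneic mouse glioma lines and naïve brain. The genes are Nt5e, Entpd1, Adora2a, Adora2b, Ido1, Tdo2 and Il4i1. They were taken by symbol from the 46679 genes in the deposited tables, and all 7 had a row there.

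RNA was sequenced from bulk tissue of 15 C57BL/6 mice, 3 per group. Naïve brain is the control group, without tumor. CT2A (p53 wild type) and GL261 (mutant in K-ras and p53) are lines induced with methylcholanthrene, 005 carries activated H-ras and AKT on a p53+/- background, and Mut3 arose after inactivation of NF1 and p53. Cells were implanted in the right hemisphere at 6 to 8 weeks of age, 500000 cells for Mut3 and 100000 for each of the other lines. The study transduced its lines to express GFP and firefly luciferase (GFP-Fluc), so each tumor group stands for 1 transduced line. At humane endpoint the mice were perfused with PBS and the tumor was removed. The estimated counts added up to between 3105070 and 5161252 per sample in naïve brain and between 5380577 and 13130030 in the tumors. Neuronal genes were at their highest in naïve brain, where the summed TPM of 6 of them was 1313 to 1526. They were lower in every tumor, but 005 replicate 3 still held 965 against 99.1 and 39.8 in the other 005 tumors, and its correlation with replicate 2 (r = 0.792, log2 CPM across genes) was the lowest within any group. The fitted differences of these genes that involve 005 are therefore also given without that tumor.

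ATP released by stressed or dying cells is cut in 2 steps outside the cell. CD39, encoded by Entpd1, removes phosphates from ATP and ADP to leave AMP, and CD73, encoded by Nt5e, turns AMP into adenosine. Adenosine then acts through the receptors encoded by Adora2a, abundant in the striatum and also on lymphocytes, and Adora2b, which needs more adenosine. Both receptors raise cyclic AMP. In the tryptophan branch, IDO1 (Ido1, induced by interferon-gamma) and TDO2 (Tdo2, best known from the liver) open the ring of tryptophan on the way to kynurenine. IL4I1 (Il4i1) is a secreted amino acid oxidase of myeloid and B cells. Products of these enzymes can activate the aryl hydrocarbon receptor.

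The genes lie on 7 chromosomes of the mouse genome (GRCm38, GENCODE release M21). Nt5e (ENSMUSG00000032420) is at chr9:88327197-88372092, Entpd1 (ENSMUSG00000048120) at chr19:40612366-40741602, Adora2a (ENSMUSG00000020178) at chr10:75316877-75334784 and Adora2b (ENSMUSG00000018500) at chr11:62248984-62266453, all on the plus strand. Ido1 (ENSMUSG00000031551) is at chr8:24584136-24597009 and Tdo2 (ENSMUSG00000028011) at chr3:81957090-81976202, both on the minus strand. Il4i1 (ENSMUSG00000074141), on the plus strand at chr7:44816387-44840809, shares exon bases with Nup62 on its own strand and with Atf5 and Tbc1d17 on the other, so its counts are uncertain. Upstream windows of Nt5e, Tdo2 and Il4i1 overlap annotated exons and are not printed. Shown are the 250 bases before the first of 2 annotated starts of Entpd1 and before the start of Adora2b. Both are plus-strand RefSeq sequence (GRCm38.p6). Capitals mark the core letters bound by the aryl hydrocarbon receptor, GCGTG, or their reverse complement.
Entpd1, chr19:40612116-40612365: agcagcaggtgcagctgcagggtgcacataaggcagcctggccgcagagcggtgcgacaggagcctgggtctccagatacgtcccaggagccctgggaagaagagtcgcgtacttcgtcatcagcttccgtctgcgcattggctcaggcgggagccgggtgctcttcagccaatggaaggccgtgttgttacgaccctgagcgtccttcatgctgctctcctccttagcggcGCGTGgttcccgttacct
Adora2b, chr11:62248734-62248983: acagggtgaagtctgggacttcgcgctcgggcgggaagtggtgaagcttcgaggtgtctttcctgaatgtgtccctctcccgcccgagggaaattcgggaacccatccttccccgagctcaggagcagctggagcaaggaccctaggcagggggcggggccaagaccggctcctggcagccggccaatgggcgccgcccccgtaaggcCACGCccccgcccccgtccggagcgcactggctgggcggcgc
RefSeq held 6 start windows for 5 of the genes, with no entry for Ido1 or Adora2a. Searched on both strands in the 250 bases before each start, GCGTG occurred in 4 of the 6, those of Adora2b, Nt5e, Tdo2 and the first start of Entpd1, and in 28.2% of all 32851 such windows. The second start of Entpd1 and the window of Il4i1 held none. The starts used were those of RefSeq. The windows of Nt5e and Tdo2 lie inside the GENCODE gene spans given above, past the GENCODE start. The interferon-stimulated response element, searched as GAAA, any 2 bases and GAAA again, was in 0 of the 6 (2.98% of all). The gamma-activated site TTCNNNGAA was in 0 (7.02%). The hypoxia core was searched only as ACGTG, which shares 4 letters with GCGTG, and was in 0 (16.6%). A hypoxia core with another first letter was not counted there, so this 0 does not show that the core was absent. These matches describe letters only.

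Levels of different genes were compared in TPM, which corrects for gene length. The 7 genes were compared between samples in CPM, counts scaled to the library size after TMM normalization. Summed lists and mean levels of other genes are given in TPM, whose scaling differed between naïve brain and most tumors. Entpd1 was by far the most abundant of the 7, with a median of 4.94 TPM over the 15 samples, higher than the median of 87.8% of the genes with any count. Ido1 (0.447 TPM), Nt5e (0.319 TPM) and Adora2b (0.130 TPM) followed. Il4i1 (0.0347 TPM), Adora2a (0.0184 TPM) and Tdo2 (0.00313 TPM) were near the limit of detection, with more than 3 counts in only 3, 5 and 6 samples. A count of 3 corresponded to between 0.214 and 0.811 CPM, depending on the sample, and covers counting error only. Of the 7 genes, 6 passed the filter on low counts and were tested among 17481 genes, while Adora2a did not pass. In bulk tissue, fewer cells of a type and less RNA per cell cannot be told apart.

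**Figure D1:**
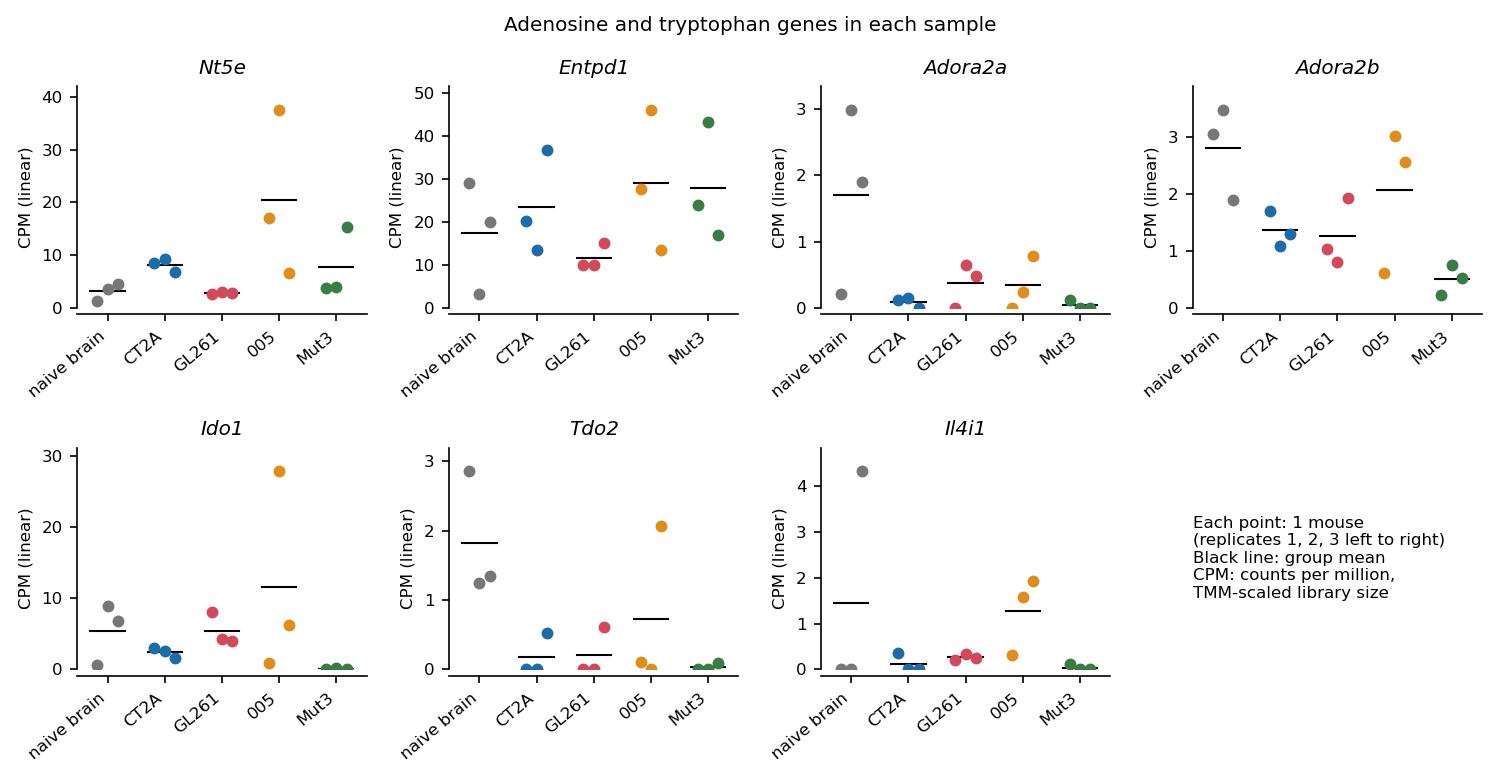
Level of each gene in every sample, in CPM on linear axes that start at 0 and differ between panels. Points are single mice and black lines are group means of 3 mice; Nt5e is highest in 005, Ido1 is at or near 0 in all 3 Mut3 tumors, and Entpd1 overlaps between nearly all groups.

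Nt5e, the gene of the enzyme that makes adenosine, was highest in 005 tumors. It measured 17.0, 37.5 and 6.55 CPM in the 3 samples of 005, and 1.22, 3.49 and 4.60 CPM in naïve brain. CT2A held an even 8.43, 9.31 and 6.85 CPM and GL261 an even 2.69, 2.91 and 2.79 CPM. Mut3 was split, with 3.80 and 4.03 CPM in replicates 1 and 2 and 15.3 CPM in replicate 3. The 005 samples lay above every sample of naïve brain and GL261 but overlapped with CT2A and Mut3. The CT2A samples also lay above every sample of naïve brain and GL261, and the Mut3 samples above every sample of GL261. In edgeR's quasi-likelihood test, with Benjamini-Hochberg adjustment over all 17481 genes, Nt5e differed among the 5 groups (adjusted p = 0.0098, as did 52.1% of all genes) and was 2.72 ± 0.69 (SE) log2 units higher in 005 than in naïve brain (adjusted p = 0.0190, n = 3 per group). A gene was called at an adjusted p under 0.05 and a log2 fold change of at least 1 in size. In CT2A (1.41, adjusted p = 0.106) and Mut3 (1.34, adjusted p = 0.129) Nt5e was not called against naïve brain. Nt5e was the only one of the 6 genes called in 005 against naïve brain, where 12.7% of all tested genes were called and 11.6% were called as higher. The call was lost without naïve brain replicate 1 (2.33, adjusted p = 0.0871) and without 005 replicate 2 (1.94, adjusted p = 0.115), and without 005 replicate 3, where 35.7% of all genes were called, the difference was 3.08 (adjusted p = 0.00210).

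Between tumors, Nt5e was 2.85 ± 0.69 log2 units higher in 005 than in GL261 (adjusted p = 0.0391), the only one of the 6 genes called there, against 2.62% of all genes. That call sat close to the threshold. It was lost when any of 9 libraries was left out, among them each CT2A and GL261 library, with adjusted p values of 0.0539 to 0.187 and differences of 2.06 to 2.97. Without 005 replicate 3 it was 3.28 (adjusted p = 0.00736). Against CT2A the difference was 1.31 (95% interval -0.0529 to 2.67, adjusted p = 0.218), and Mut3 against 005 gave -1.39 (-2.75 to -0.0290, adjusted p = 0.134), so neither passed. Without 005 replicate 3 these were 1.70 (adjusted p = 0.124) and -1.74 (adjusted p = 0.0568). In the order of mean CPM, 005 (20.4 ± 15.8, SD, n = 3) stood above CT2A (8.20 ± 1.25), Mut3 (7.71 ± 6.58), naïve brain (3.103 ± 1.72) and GL261 (2.80 ± 0.108). No neighbors in this order differed past the test's threshold.

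Entpd1, upstream of Nt5e in the same chain, was not called in any comparison. Its levels were 29.2, 3.24 and 20.0 CPM in naïve brain, 20.1, 13.5 and 36.7 in CT2A, and 9.95, 9.86 and 15.04 in GL261. In 005 they were 27.7, 46.1 and 13.5 CPM, and in Mut3 23.8, 43.3 and 16.9 CPM. Naïve brain alone held both a level as high as most tumors and the lowest level of all, and the only groups that did not overlap were GL261 and Mut3. Among the 5 groups the adjusted p was 0.344. The differences from naïve brain ran from -0.59 (95% interval -1.97 to 0.79) in GL261 to 0.73 (-0.63 to 2.09) in 005, and these intervals leave room for changes past the threshold. Without 005 replicate 3 the latter was 1.01 (adjusted p = 0.231). On the TPM scale, where the genes can be set against each other, Entpd1 exceeded Nt5e in every sample. The ratio of Entpd1 to Nt5e was 5.55 to 9.31 in the 3 samples of 005 and 15.8 to 24.7 in GL261, without overlap. It was 6.49 to 24.2 in CT2A, 4.98 to 48.6 in Mut3 and 4.01 to 111 in naïve brain.

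Adora2b, the gene of the low-affinity adenosine receptor, was lowest in Mut3. It measured 3.06, 3.49 and 1.89 CPM in naïve brain, 1.71, 1.09 and 1.29 in CT2A, and 1.04, 0.808 and 1.94 in GL261. The 005 samples held 0.618, 3.02 and 2.56 CPM, and Mut3 held 0.224, 0.755 and 0.528 CPM, which are 2 to 6 counts. Mut3 did not overlap with naïve brain, CT2A or GL261. It was lower than naïve brain by a log2 fold change of -2.46 ± 0.70 (adjusted p = 0.0130), a call lost without naïve brain replicate 2 (-2.10, adjusted p = 0.0505) or Mut3 replicate 1 (-2.10, adjusted p = 0.0549). No other tumor was called, with adjusted p values of 0.220 in CT2A (-1.04), 0.216 in GL261 (-1.13) and 0.654 in 005 (-0.45). Mut3 against 005 did not pass (-2.01, adjusted p = 0.0508). Without 005 replicate 3, 005 against naïve brain gave -0.71 (adjusted p = 0.487) and Mut3 against 005 gave -1.76 (adjusted p = 0.134).

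Adora2a, the gene of the high-affinity receptor that T cells carry, was detected mainly in naïve brain, with 1, 12 and 7 counts in its 3 samples. The 12 tumors held 0 to 4 counts except for 005 replicate 3, which held 11. Both higher samples of naïve brain, 2.99 and 1.89 CPM, were above every tumor, and naïve brain replicate 1 (0.204 CPM) was not. Summed over the mice, naïve brain had 20 counts and CT2A 2, a ratio of 17.7 after scaling (95% counting interval 4.31 to 156), and Mut3 had 1, a ratio of 44.8 (7.17 to 1857). These intervals cover counting error only and not the spread between mice. Tested without the filter on low counts, Adora2a was called as lower than naïve brain in CT2A (adjusted p = 0.0495, 20.7% of all genes called) and Mut3 (adjusted p = 0.0182, 20.4% called). The 8 genes of striatal neurons moved in the same direction: their summed TPM was 103 to 358 in naïve brain, 2.17 to 29.7 in CT2A, 3.99 to 48.2 in GL261 and 1.62 to 7.99 in Mut3. In 005 it was 9.73 and 2.71 in replicates 1 and 2, which had 0 and 2 counts of Adora2a, and 138 in replicate 3. Their part in the level of Adora2a was not tested.

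Ido1 was close to undetected in Mut3 and present in every other group. Mut3 held 0, 1 and 1 counts in its 3 tumors (0, 0.126 and 0.0880 CPM). GL261 held 8.08, 4.20 and 4.00 CPM and CT2A 2.93, 2.64 and 1.55 CPM. The 005 tumors were far apart, at 0.824, 27.9 and 6.19 CPM, and naïve brain measured 0.612, 8.97 and 6.76 CPM. All 12 samples outside Mut3 were above all 3 of Mut3, and every sample of GL261 was above every sample of CT2A.

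The difference among the 5 groups passed the test (adjusted p = 0.0077). Ido1 was lower in Mut3 than in naïve brain (fitted log2 fold change -5.96 ± 1.37, adjusted p = 0.0038), CT2A (-4.78 ± 1.36, adjusted p = 0.0326), GL261 (-5.96 ± 1.36, adjusted p = 0.0101) and 005 (-7.06 ± 1.37, adjusted p = 0.0040). It was the only one of the 6 genes called in each comparison of Mut3 with another tumor, where 12.8%, 17.2% and 19.8% of all genes were called against CT2A, GL261 and 005. With 2 counts in all of Mut3 these fitted values depend on the prior count. The ratios of summed, scaled counts were 71.7 for naïve brain over Mut3 (95% counting interval 19.0 to 605), 33.5 for CT2A (8.82 to 284), 71.9 for GL261 (19.4 to 602) and 144 for 005 (39.5 to 1192). The call against CT2A was lost without any one of the CT2A or Mut3 libraries (-4.37 to -5.20, adjusted p = 0.0513 to 0.108), whereas the calls against naïve brain, GL261 and 005 were kept without each library in turn. Apart from Mut3 no pair of groups was called. The difference from naïve brain was -1.18 in CT2A (95% interval -3.28 to 0.91), -0.0014 in GL261 (-2.05 to 2.05) and 1.0995 in 005 (-0.92 to 3.12). That of 005 from CT2A was 2.28, with an unadjusted p of 0.0346 in edgeR and an adjusted p of 0.171. Without 005 replicate 3, Mut3 against 005 was -7.29 (adjusted p = 0.00291), 005 against naïve brain 1.33 (adjusted p = 0.313) and 005 against CT2A 2.56 (adjusted p = 0.179).

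The study set GL261 and 005 apart as immunologically active and CT2A and Mut3 as inert from this same RNA sequencing, so a comparison along that split is not independent of how it was drawn. In it Ido1 was higher in GL261 and 005 (4.12 ± 0.84, adjusted p = 0.0055, and 4.21, adjusted p = 0.00464, without 005 replicate 3), and it was the only one of the 6 genes called against 16.9% of all genes. Genes of other cells moved with Ido1 between the groups of tumors, though not in every sample, and they were not only immune genes. Called as higher in GL261 and 005 were 7 of 7 interferon-gamma, 4 of 4 tested T cell and 6 of 8 leukocyte and macrophage genes. So were 6 of 6 neuronal, 5 of 7 tested striatal, 4 of 6 microglial, 3 of 5 astrocyte and 3 of 5 oligodendrocyte genes. Few or none were called for dendritic cells (1 of 7), endothelium (1 of 6), choroid plexus (0 of 5) and fibroblasts (0 of 6, 1 lower). All these counts include 005 replicate 3. Its neuronal sum was 965 TPM, against 99.1 and 39.8 in the other 005 tumors. That sum was 129 to 302 in GL261, 40.8 to 195 in CT2A and 8.15 to 30.5 in Mut3. The oligodendrocyte sum was 635 TPM in 005 replicate 3 and 46.9 and 37.2 in the other 005 tumors. The summed TPM of Ifng, the interferon-gamma gene, and 6 of its targets was 12.3 to 61.1 in Mut3, 60.6 to 80.4 in CT2A, 170 to 311 in GL261 and 109 to 1244 in 005. The 6 T cell genes added up to 0.862 to 3.22 TPM in Mut3, 4.46 to 5.40 in CT2A, 8.68 to 14.2 in GL261 and 8.04 to 47.5 in 005. The highest of all samples in Ido1, in the interferon-gamma list and in the T cell list was the same tumor, 005 replicate 2. In 005 replicate 1, Ido1 (0.824 CPM) was below every CT2A tumor while the interferon-gamma list (117 TPM) and the T cell list (8.04 TPM) were above every CT2A tumor. Naïve brain did not follow the order either, since its interferon-gamma list was low (12.9 to 22.4 TPM) while Ido1 reached 8.97 CPM in replicate 2. The part of these cells in the level of Ido1 was not tested.

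**Figure D2:**
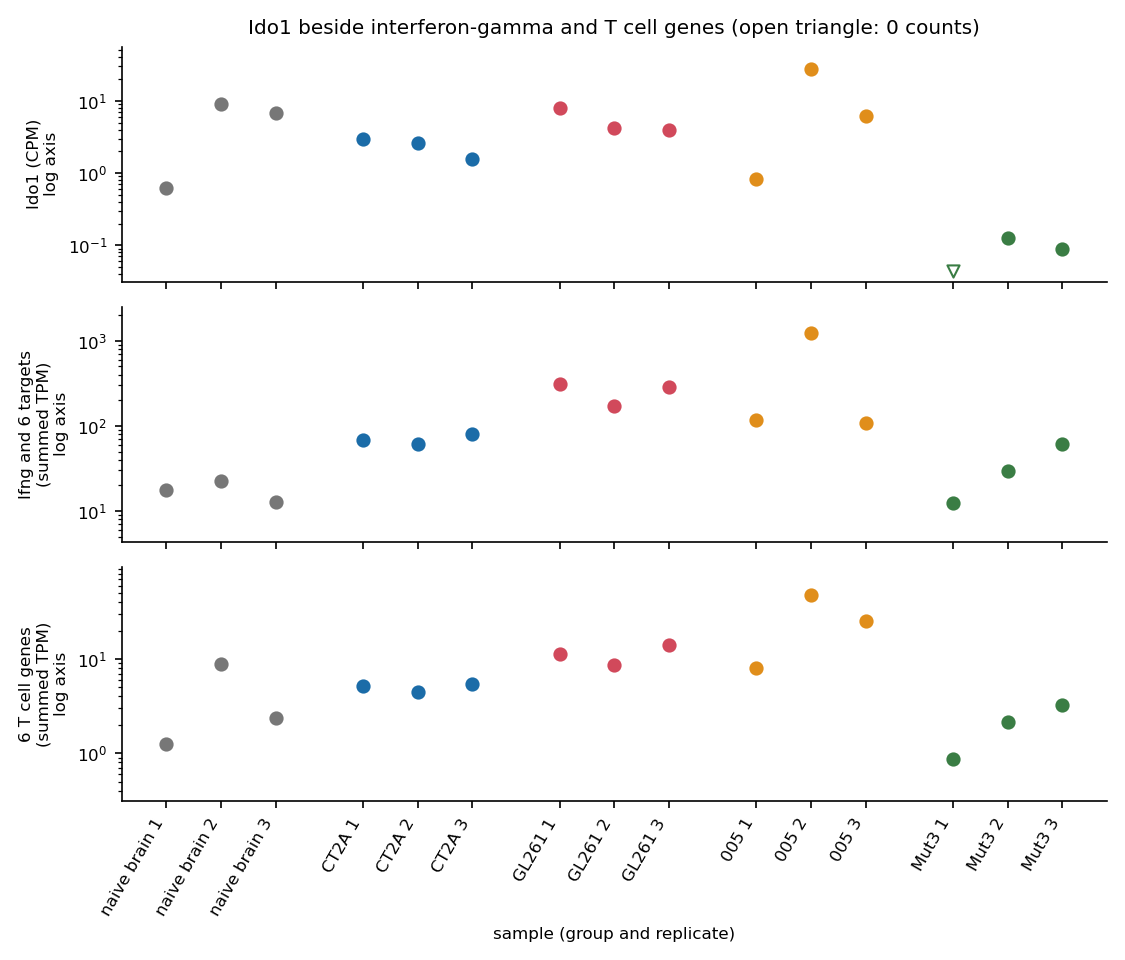
Ido1 (CPM, top), the summed TPM of Ifng and 6 targets (middle) and of 6 T cell genes (bottom) in each of the 15 samples, all on log axes; the open triangle marks 0 counts. The Mut3 tumors are lowest in Ido1 (0 to 0.126 CPM), 005 replicate 2 is highest in all 3 panels, and naïve brain has Ido1 with few interferon-gamma targets.

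Tdo2 was a gene of naïve brain in these data, at very low level. Naïve brain held 14, 5 and 5 counts (2.86, 1.25 and 1.35 CPM). Of the tumors, CT2A had 0, 0 and 4 counts, GL261 0, 0 and 5, 005 1, 0 and 29, and Mut3 0, 0 and 1. The 29 counts (2.06 CPM) of 005 replicate 3, the tumor with many neuronal transcripts, were the only tumor value within the range of naïve brain. Mut3 was called as lower than naïve brain (fitted log2 fold change -5.20 ± 1.77, adjusted p = 0.0303), with a ratio of summed counts of 53.8 (95% counting interval 8.77 to 2211). Tdo2 passed the filter on low counts chiefly through naïve brain and 005 replicate 3, which favors a call in this direction. The call was lost without naïve brain replicate 1 or 2 or any Mut3 library (-4.72 to -6.71, adjusted p = 0.0519 to 0.0983). Neither CT2A (-3.26, adjusted p = 0.101) nor GL261 (-2.89, adjusted p = 0.163) passed. In 005 the value was -1.25 (adjusted p = 0.524) with all 3 tumors and -4.75 (adjusted p = 0.0426) without replicate 3.

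Il4i1 was seen in few samples. It had 0, 0 and 16 counts in naïve brain, 3, 0 and 0 in CT2A, 1, 2 and 2 in GL261, 3, 13 and 27 in 005 and 1, 0 and 0 in Mut3. Naïve brain replicate 3 (4.33 CPM) and 005 replicates 2 and 3 (1.57 and 1.92 CPM) were the only samples over 3 counts. Mut3 passed the test against naïve brain (fitted log2 fold change -4.76 ± 1.75, adjusted p = 0.0421), but that result rested on naïve brain replicate 3. Without it, the sign turned (1.71, adjusted p = 0.612). Leaving out GL261 replicate 1, 2 or 3, 005 replicate 2 or any Mut3 library also lost the call (-4.24 to -6.36, adjusted p = 0.0507 to 0.129). Mut3 and 005 did not overlap (ratio of summed counts 37.9, 95% counting interval 6.45 to 1532), though that difference did not pass (-4.63, adjusted p = 0.0676, and -4.10, adjusted p = 0.145, without 005 replicate 3). Against naïve brain, 005 gave -0.13 (adjusted p = 0.953), and -0.64 (adjusted p = 0.774) without that tumor.

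Taking the 6 tested genes side by side, Mut3 was the tumor in which most of them were called as lower than naïve brain. Of the 6, 4 were called as lower (Ido1, Adora2b, Tdo2 and Il4i1) and 0 as higher, where 37.8% of all genes were called and 19.8% as lower. The median log2 fold change of the 6 was -3.61, and that of all tested genes 0.11. In CT2A and in GL261 0 of the 6 were called, against 39.2% and 22.4% of all genes, and 0 had an unadjusted p under 0.05. DESeq2 also called 0 in both. In 005 the median of the 6 was 0.30 against 0.01 for all genes. GL261 against CT2A and 005 against CT2A gave 0 calls each, against 7.77% and 4.11% of all genes, with 1 of the 6 at an unadjusted p under 0.05 in each and 0 called by DESeq2. Tdo2 and Il4i1 passed the filter through their few higher samples, so these counts and medians describe the tested genes only. The 4 comparisons with naïve brain share its 3 samples. Neuronal genes were lower in Mut3 than in any other tumor, with a summed TPM of 8.15 to 30.5 against 39.8 to 965 in the other lines. All 8 leukocyte and macrophage genes were called as lower in Mut3 than in 005, and 5 of 8 than in GL261. In these comparisons 19.8% and 17.2% of all genes were called in either direction. Against naïve brain, 2 of the 8 were called as lower in Mut3 and 0 as higher, and their median log2 fold change was 0.79. The part of neurons and leukocytes in the differences of Ido1, Tdo2, Adora2b and Il4i1 was not tested.

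**Figure D3:**
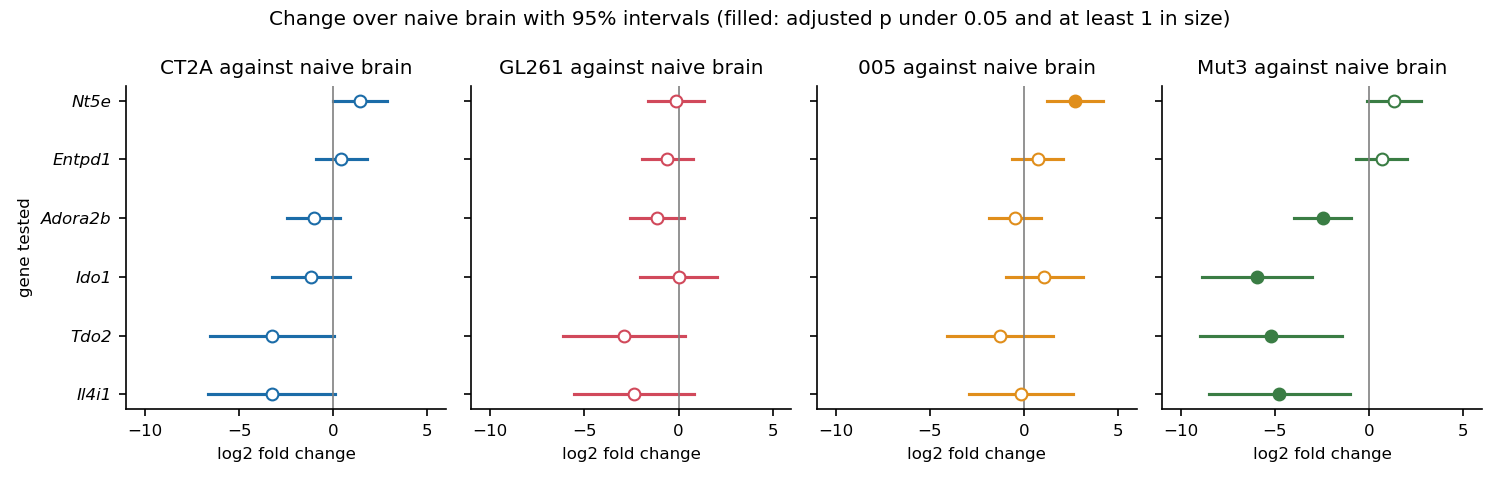
Fitted log2 fold change of each tumor over naïve brain for the 6 tested genes, with 95% intervals and 3 mice per group; filled points passed the test. Only Nt5e in 005 (2.72) is filled on the higher side, and Ido1, Adora2b, Tdo2 and Il4i1 are filled on the lower side in Mut3; the intervals of Tdo2 and Il4i1 are the widest.

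The other genes of the adenosine pathway moved in both directions. Of 22 listed, 20 were tested. Against naïve brain, 4 were called as higher and 4 as lower in CT2A, 3 and 1 in GL261, 5 and 0 in 005, and 4 and 5 in Mut3, where 39.2%, 22.4%, 12.7% and 37.8% of all tested genes were called in either direction. The counts in CT2A, GL261 and Mut3 were near that general share. All values of this pathway in 005 include replicate 3, the tumor with many neuronal transcripts. Without it 35.7% of all genes were called in 005 against naïve brain, and the list was not counted again without it. Genes that remove adenosine or carry it were among those that rose. Slc29a1, the equilibrative nucleoside transporter ENT1, rose in all 4 tumors, by 1.51 log2 units in GL261 and by 2.06, 2.63 and 2.94 in Mut3, 005 and CT2A (adjusted p = 0.0010 to 0.0350). Its level went from 4.55 ± 2.53 TPM (SD, n = 3) in naïve brain to 16.2 ± 5.30 TPM in CT2A. Ada, adenosine deaminase, rose in CT2A (3.29, adjusted p = 0.0017), 005 (2.22, adjusted p = 0.0266) and Mut3 (2.81, adjusted p = 0.0027). P2rx7, a channel opened by ATP, also rose in all 4, by 2.25 to 2.70 log2 units.

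Those that fell included receptors of neurons and microglia. Adora1, the A1 receptor gene of neurons, fell in CT2A (-2.97, adjusted p = 0.0148) and Mut3 (-4.82, adjusted p = 0.0017), from 5.32 ± 3.93 TPM in naïve brain to 0.326 ± 0.272 and 0.0940 ± 0.0697 TPM. P2ry12, a microglial receptor of ADP, fell in the same tumors (-2.41 and -3.61), as did Entpd3, another ectonucleotidase, from 0.843 ± 0.182 TPM to 0.0570 ± 0.0861 and 0.00462 ± 0.00409 TPM. Cd38, which breaks down NAD outside the cell, rose in CT2A (1.75), GL261 (1.82) and 005 (3.00) and was not called in Mut3, where it was lower than in each other tumor (-2.19 to -3.44). Dpp4, a cell surface peptidase, was also lower in Mut3 than in naïve brain and in each other tumor; it averaged 0.00308 ± 0.00325 TPM in Mut3.

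The tryptophan pathway also moved in both directions. Of 22 listed, 17 were tested, and against naïve brain 6 were called as higher and 3 as lower in CT2A, 0 and 1 in GL261, 1 and 0 in 005, and 3 and 2 in Mut3, beside the same shares of all genes (39.2%, 22.4%, 12.7% and 37.8%). Here too all values in 005 include replicate 3, and the list was not counted again without it. Kmo, which turns kynurenine into hydroxykynurenine in microglia, rose in CT2A (1.81, adjusted p = 0.0394), 005 (2.23, adjusted p = 0.0371) and Mut3 (2.05, adjusted p = 0.0223), from a low 0.0448 ± 0.0252 TPM to at most 0.159 ± 0.0676 TPM in 005. Aadat, which turns kynurenine into kynurenic acid, was found mainly in CT2A (0.418 ± 0.0833 TPM) and was listed at 0 in all samples of naïve brain and Mut3. Slc7a8, an amino acid transporter, fell in CT2A (-2.30, adjusted p = 0.0134) and Mut3 (-3.56, adjusted p = 0.0016). Ahr, the receptor for kynurenine products, was not called in any tumor against naïve brain but was lower in Mut3 than in CT2A (-2.78, adjusted p = 0.0114) and 005 (-2.77, adjusted p = 0.0103). Of its targets, Tiparp was lower in Mut3 than in CT2A (-1.64, adjusted p = 0.0338) and was not called between Mut3 and 005 (-0.76, adjusted p = 0.265). Nqo1 was not called between Mut3 and CT2A (0.03, adjusted p = 0.963) and was higher in Mut3 than in 005 (1.16, adjusted p = 0.0271) and than in GL261 (1.78, adjusted p = 0.00464). Over naïve brain, Nqo1 rose by 1.43 in CT2A (adjusted p = 0.0065) and by 1.46 in Mut3 (adjusted p = 0.0050).

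**Figure D4:**
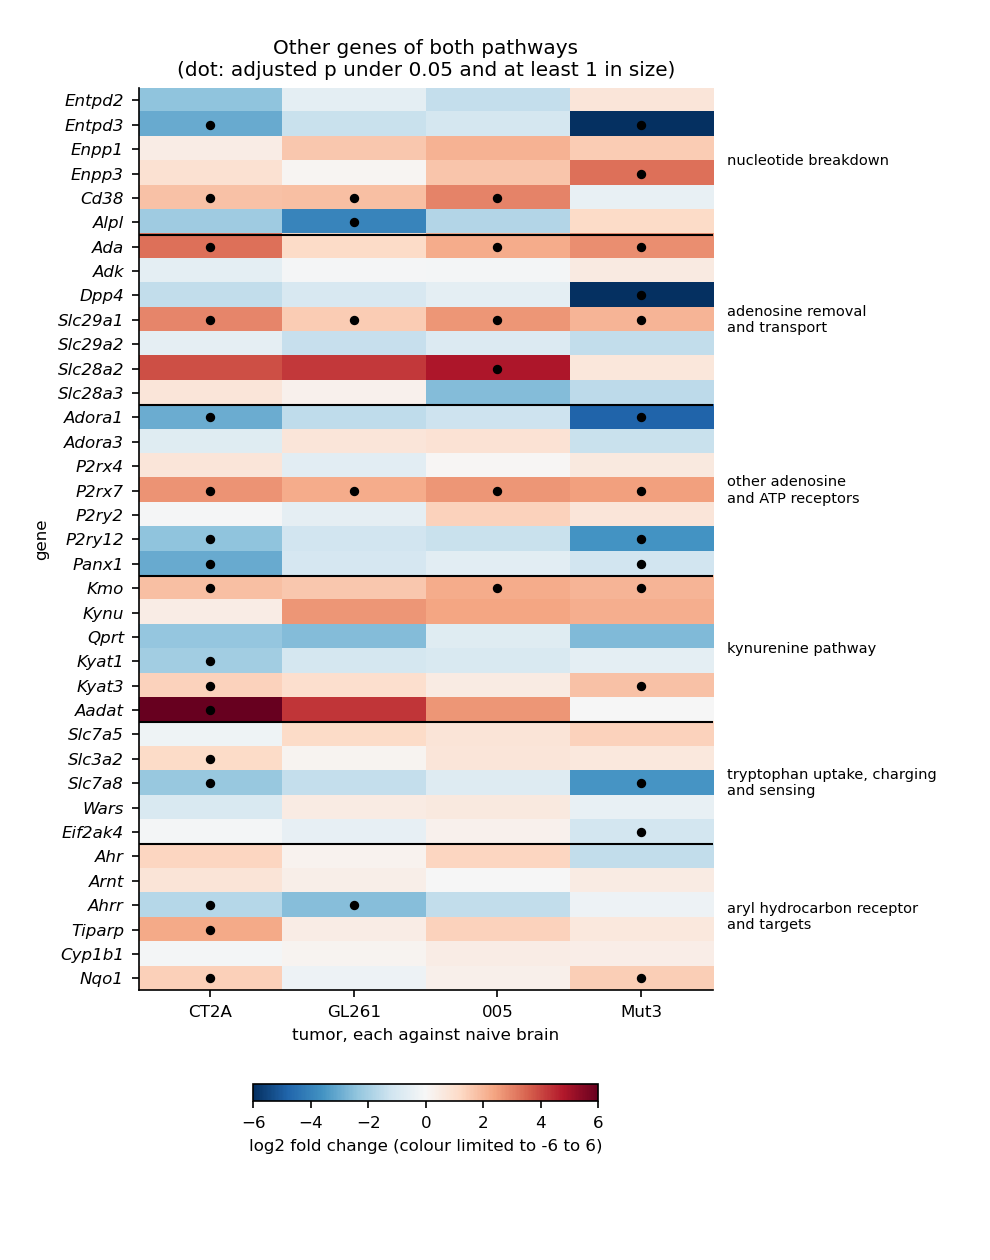
Log2 fold change of 37 other tested genes of the adenosine (upper 3 blocks) and tryptophan (lower 3 blocks) pathways in each tumor against naïve brain; dots mark genes that passed the test, and colors stop at -6 and 6. Slc29a1 and P2rx7 carry a dot in all 4 tumors, and most of the dots on lower genes are in CT2A and Mut3. Aadat was listed at 0 in naïve brain, so its color has no fixed fold.

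The 6 tested genes did not share 1 pattern across the 15 samples, which are 5 groups of mice and share depth and cell makeup, so these correlations are a description. The nearest pair was Adora2b and Ido1 (r = 0.704), while Nt5e and Entpd1, neighbors in 1 chain, had r = 0.347. Among 11364 better expressed genes, those nearest to Ido1 in log2 CPM were Selplg (r = 0.908), Znfx1 (0.900) and Acsl5 (0.897). Nearest to Adora2b were Coro1a (0.875), Mdk (0.873) and Cacna1d (0.871). Tdo2 was nearest to Ankrd29 (0.937), Egr1 (0.904) and Ddhd2 (0.903), with 7 samples at 0 counts of Tdo2. For Nt5e, Tedc2 (0.848), Hsd17b12 (0.847) and Sptlc2 (0.844) came first, for Entpd1 Zfp326 (0.818), Stk38 (0.791) and Ctr9 (0.784), and for Il4i1 Ncoa4 (0.772), Mxd1 (0.731) and Socs2 (0.697).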

How the data were processed

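RNA sequencing of 15 samples was analysed from 2 deposited tables. The authors aligned reads with STAR 2.4.2a to the GENCODE mouse genome and marked duplicates with Picard tools. The submitters' processing notes also name Salmon, DESeq2 1.18.1 and mm10, without their roles; annotation release and strand setting are not given in the sources used here. The authors deposited estimated counts (expected counts), not normalized between samples, and TPM values, scaled to gene length and to the same total per sample. Count over TPM was a gene factor times a sample factor (largest log2 residual 9.61e-10), so the tables are not independent. Relative to CPM, TPM was scaled up 1.27 to 2.05 times in naïve brain and 1.43 times in 005 replicate 3, and 0.734 to 1.03 times in the other tumors, so samples were compared by counts and CPM.

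Rounded counts went into edgeR 4.0.16 under R 4.3.3 (TMM, filterByExpr by group, quasi-likelihood test, 1 mean per group over all samples, no covariate), with Benjamini-Hochberg adjustment over 17481 genes. SE is the size of the log2 fold change over the root of F. Log2 CPM for correlations used a prior count of 2. The steps were tested on simulated counts. The labels name separate mice as replicates and no batch.

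Genes named are the 7 members, up to 4 called genes per list with the largest change plus genes a small count refers to, and the 3 genes most correlated with each member among those with mean log2 CPM of at least 2. Members and lists were chosen with earlier results of these data known. Symbols came from GENCODE M21 (46201 of 46679 identifiers matched). One listed gene, Pnp, was not analysed here. Alternatives were DESeq2 1.42.0, no filter, library size for TMM, at least 10 counts in every sample, only the samples compared, the replicate number as a block, limma 3.58.1 on log2(TPM + 1), no threshold on the fold change, CPM in place of TPM, and each sample left out.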

Additional observations from a re-analysis of the deposited data

Results flagged for a closer look

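Both genes below differed between tumor lines in edgeR's direct test of 1 line against another, with Benjamini-Hochberg adjustment over all genes. Ido1 was lower in all 3 Mut3 tumors than in any other tumor, with log2 fold changes of -4.78 against CT2A, -5.96 against GL261 and -7.06 against 005 (adjusted p = 0.0326, 0.0101 and 0.0040). Over CT2A and Mut3 together, Ido1 was higher in GL261 with 005 by 4.12 log2 units (adjusted p = 0.0055), a split that the study drew from these samples. Nt5e was higher in all 3 005 tumors than in all 3 GL261 tumors by 2.85 log2 units (adjusted p = 0.0391), a call lost in 12 of 21 alternatives, among them the replicate block and leaving out any CT2A or GL261 library. The call of Ido1 against CT2A was lost in 7 of 21, among them leaving out any CT2A or Mut3 library.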

How the results depend on the processing

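The calls of Ido1 in Mut3 against naïve brain, GL261 and 005, and in GL261 and 005 against CT2A and Mut3, were kept under all alternatives that could test them except limma on log2(TPM + 1), which compresses values under 1 TPM (adjusted p = 0.0623, 0.326, 0.108 and 0.119). Nt5e in 005 against naïve brain kept its call in 17 of 21 alternatives and against GL261 in 9 of 21; Adora2b kept it in 18 of 21, Tdo2 in 14 of 20 and Il4i1 in 10 of 20 in Mut3 against naïve brain, and Ido1 in 14 of 21 in Mut3 against CT2A. With at least 10 counts in every sample Entpd1 alone of the 7 could be tested, and the number of genes called was 0 in every comparison. Limma on log2(TPM + 1) called 0 in all comparisons where the count test had called any, although 2 genes differed among the 5 groups. Without the filter, 1 gene was called in CT2A against naïve brain (Adora2a) and 4 differed among the 5 groups. A fit of only the samples compared called 1 in CT2A against naïve brain (Nt5e), 0 in 005 and 1 in Mut3 against naïve brain, 1 in GL261 against CT2A, 0 in 005 against GL261, 2 in Mut3 against GL261 and 0 in Mut3 against 005; Ido1 failed that fit's filter on low counts in Mut3 against naïve brain and against 005. DESeq2 called 2 in Mut3 against 005. Leaving out 1 sample at a time gave 0 to 1 called genes in CT2A against naïve brain, 0 to 2 in 005, 2 to 5 in Mut3, 0 to 1 in Mut3 against CT2A and in 005 against GL261, 1 to 2 in Mut3 against 005, and 2 to 4 among the 5 groups. The 1 reversal was Il4i1 in Mut3 against naïve brain without naïve brain replicate 3 (1.71; with any other sample left out it was negative, down to -6.36). Samples that share a replicate number are different mice and did not deviate together (correlation over 0.1 in 1 of 30 same-number pairs, median -0.0199, and in 14 of 60 other pairs). With the replicate block, Tdo2 was called in CT2A and GL261 against naïve brain (1 gene each), Il4i1 in Mut3 was not, and 0 genes were called in 005 against GL261. Levels in CPM in place of TPM moved by less than 1 SD in 32 of 35 gene and group pairs. Depth limits Adora2a, Tdo2 and Il4i1 most, since 3 counts in naïve brain correspond to 0.612 to 0.811 CPM.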
